A study of Mus musculus with 32 samples.

Results

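The large bowel of newborn mice was set against the lower small intestine in 10 of the 32 total RNA libraries of a study of the digestive tract. The large bowel gave 6 libraries: colon dissected together with rectum at postnatal day 1 (P1), rectum alone at P5 and colon alone at P5, each from 1 percc1-/- and 1 wild-type sample. The lower small intestine, the bottom part of an intestine cut into a top and a bottom portion, gave 4 libraries: P1 and P5, each from 1 percc1-/- and 1 wild-type sample. It therefore holds distal jejunum as well as ileum. All mice were on a mixed 129SvEv and C57BL/6 background. The percc1-/- mice carry a germline deletion of a 1512 bp segment, placed by the labels at chr17:25175032-25176543 of mm9, with a loxP site left in its place, and wild-type mice carry neither. Because the deletion is germline, all tissues of the percc1-/- mice carry it. Contents were squeezed out of the gut before RNA was taken with TRIzol, and ribosomal RNA was removed before the stranded libraries were made. Nothing in the labels tells whether separate animals gave the libraries, so p-values measure the spread between these libraries, which may be technical.

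The small intestine digests and absorbs nutrients through a brush border of hydrolases and transporters, and in suckling rodents it also takes up milk proteins whole by endocytosis. The colon and rectum take up salt and water, exchange potassium, protons and bicarbonate, and keep bacteria away with a thick mucus from goblet cells. The border between the regions is laid down in the embryo, where late-numbered Hox genes mark the hindgut and Gata4 marks the proximal and middle small intestine. Muscle, nerve and mesenchyme surround both.

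Values are FPKM (fragment numbers scaled to transcript length and to all mapped fragments of the library) rescaled between libraries. For each gene the large bowel is given by its lowest, median and highest library. The 4 values of lower small intestine are given in the order P1 percc1-/-, P1 wild type, P5 percc1-/-, P5 wild type. Differences are large bowel minus lower small intestine on the log2(FPKM + 1) scale, with the standard error, so that a positive one means higher in large bowel. They come from limma with stage and genotype as covariates, and a gene was called at an adjusted p (Benjamini-Hochberg over all genes tested) under 0.05. Changes of genes expressed at low levels come out too small on this scale.

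Of 13280 genes tested, 3438 (25.9%) were called, 1787 (13.5%) higher and 1651 (12.4%) lower in large bowel, and the median difference over all genes was 0.03. Fewer were called in wild-type libraries alone (1639), in percc1-/- libraries alone (7) and for colon alone at P5 (424). Of 125 called genes followed by name, 40 lost their call in wild type alone and 121 in percc1-/- alone, as did 70 of 126 for colon alone at P5. Of genes described below, Retnlb, Muc4, Apoa1, Cps1, Satb1, Maf, Tlr4 and Slc10a2 lost it in wild type alone, and Tbx3, Myh11, Atoh1, Spdef and Muc13 once overlapping unnamed records were added. All 6 large bowel values lay above all 4 lower small intestine values for 1297 genes (9.77%) and below them for 1237 (9.31%). The deposited tables hold no counts, so depth is not known. In the 10 libraries the highest FPKM of any gene was 77.8 to 152.8, and Actb lay between 43.4 and 57.2, so that differences among abundant genes may be understated, which was not tested. An exact 0 can be a failed estimate, since 14 of the 4595 genes that averaged 10 FPKM or more had a 0 in at least 1 of the 10 libraries.

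No record carried the symbol Percc1, so the targeted gene itself was not checked. Unnamed records overlapped the stated deleted positions in 2 of the 5 percc1-/- libraries, colon at P5 (up to 2.35 FPKM) and lower small intestine at P1 (1.49 FPKM), and in 0 of the 5 wild-type libraries. Whether these records lie within the segment or mostly beside it was not checked. Whether these positions truly refer to mm9 is uncertain, and the genotypes are used as labelled. Posterior Hox genes, Car1 and Lct, described below, separated the labelled regions in all 10 libraries. A pair of libraries stood apart in genes of other tissues. The summed level of 14 stomach genes was 129 FPKM in percc1-/- colon at P5 and 78.0 FPKM in percc1-/- lower small intestine at P5, against 1.57 to 25.1 FPKM in the other 8 libraries. Gkn2, which encodes a protein of gastric surface mucus cells, stood at 15.9 and 9.03 FPKM in that colon and that lower small intestine, and at no more than 2.33 FPKM elsewhere. The same lower small intestine library held 218 FPKM of 16 genes of squamous epithelium, against 23.9 to 35.9 FPKM in the other 9. Without this pair, an alternative chosen after seeing the data, 3795 genes were called, 3012 of them among the 3438.

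**Figure D1:**
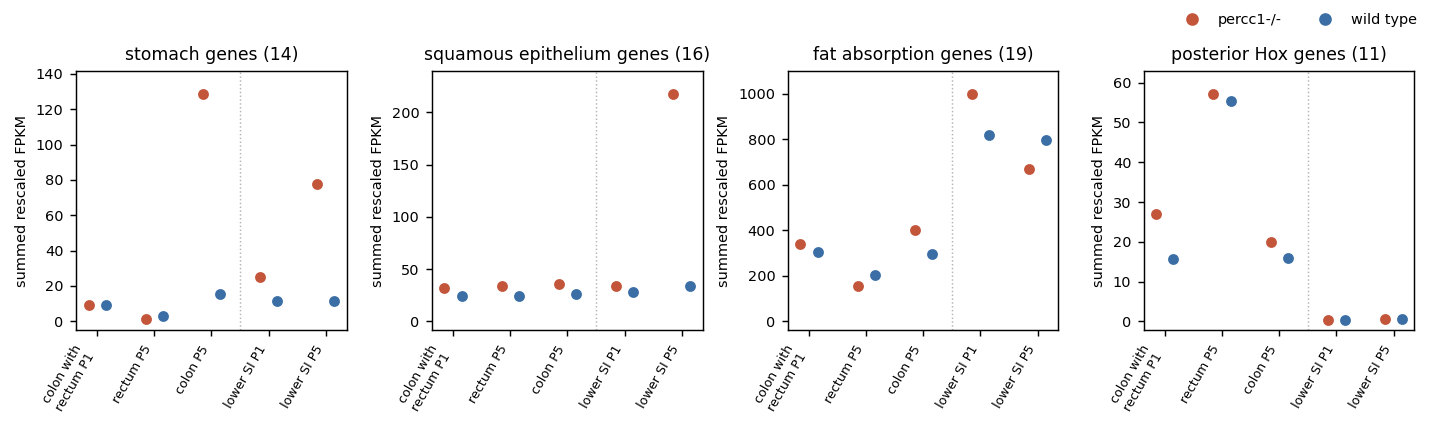
Summed rescaled FPKM of 4 gene lists in each of the 10 libraries, with 1 point per library, percc1-/- in red and wild type in blue; the dotted line separates large bowel (left) from lower small intestine (SI). Stomach genes reached 129 in percc1-/- colon at P5 and 78.0 in percc1-/- lower small intestine at P5, squamous genes 218 in the same lower small intestine, while fat absorption genes and posterior Hox genes split the regions in all libraries.

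Hox genes of the late paralogue groups were low in lower small intestine. Hox genes encode homeodomain transcription factors whose order along each cluster follows their position along the body axis. Of the 16 genes in paralogue groups 9 to 13, 12 exceeded 1 FPKM in some large bowel library and 0 did so in any lower small intestine library, where the highest value was 0.721 FPKM against 31.2 FPKM in large bowel. Summed over the 11 with a value in every library, they stood at 15.8, 23.4 and 57.3 FPKM in large bowel, against 0.21, 0.26, 0.46 and 0.53 FPKM in lower small intestine. Of the 23 genes in groups 1 to 8, 19 exceeded 1 FPKM in some large bowel library and 18 in some lower small intestine library.

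Only 5 posterior Hox genes had a mean of at least 1 FPKM and a value in all 10 libraries, and these reached that mean through large bowel alone, so no count over them is read as a result. Hoxa11 (chr6:52192105-52195766, mm9) stood at 2.70, 3.66 and 5.87 FPKM in large bowel and was listed at 0 in all 4 lower small intestine libraries (difference 2.26 ± 0.18, limma adjusted p = 0.000353). Its antisense partner Hoxa11as gave 6.26, 10.3 and 24.4 FPKM in large bowel and was also listed at 0 in lower small intestine (3.58 ± 0.32, adjusted p = 0.000468). The libraries are labelled as stranded, but no source used here says whether counting used the strand, so overlapping reads of the pair may not be told apart. Hoxa13, the last gene of its cluster, stood at 2.44, 3.21 and 8.87 FPKM in large bowel against 0 in each lower small intestine library (2.32 ± 0.31, adjusted p = 0.00206). Hoxd9 also rose (1.86 ± 0.33, adjusted p = 0.00516), with no overlap between the regions.

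Hoxb13 (chr11:96055675-96057913, mm9) stood at 0.962, 7.39 and 31.2 FPKM in large bowel, against 0.0443, 0, 0 and 0 FPKM in lower small intestine. Its difference of 3.08 ± 0.77 was called (adjusted p = 0.0187), but the call was lost without percc1-/- colon with rectum at P1 (adjusted p = 0.0541), percc1-/- lower small intestine at P1 (0.051) or wild-type lower small intestine at P5 (0.0639). It was also lost in wild-type libraries alone and with a pseudocount of 5. Hoxd13 (chr2:74506367-74509655, mm9) was listed at 0 in every lower small intestine library and stood at 0.420, 0.897 and 11.9 FPKM in large bowel, and did not pass the test (1.56 ± 0.66, adjusted p = 0.115). Both genes were highest in rectum. Hoxa9, Hoxa10, Hoxd10 and Hoxd11 each lacked a value in percc1-/- colon at P5 and were left out of the test. In the other 5 large bowel libraries Hoxa9 stood at 8.98 to 15.97 FPKM, and in lower small intestine at no more than 0.09 FPKM.

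**Figure D2:**
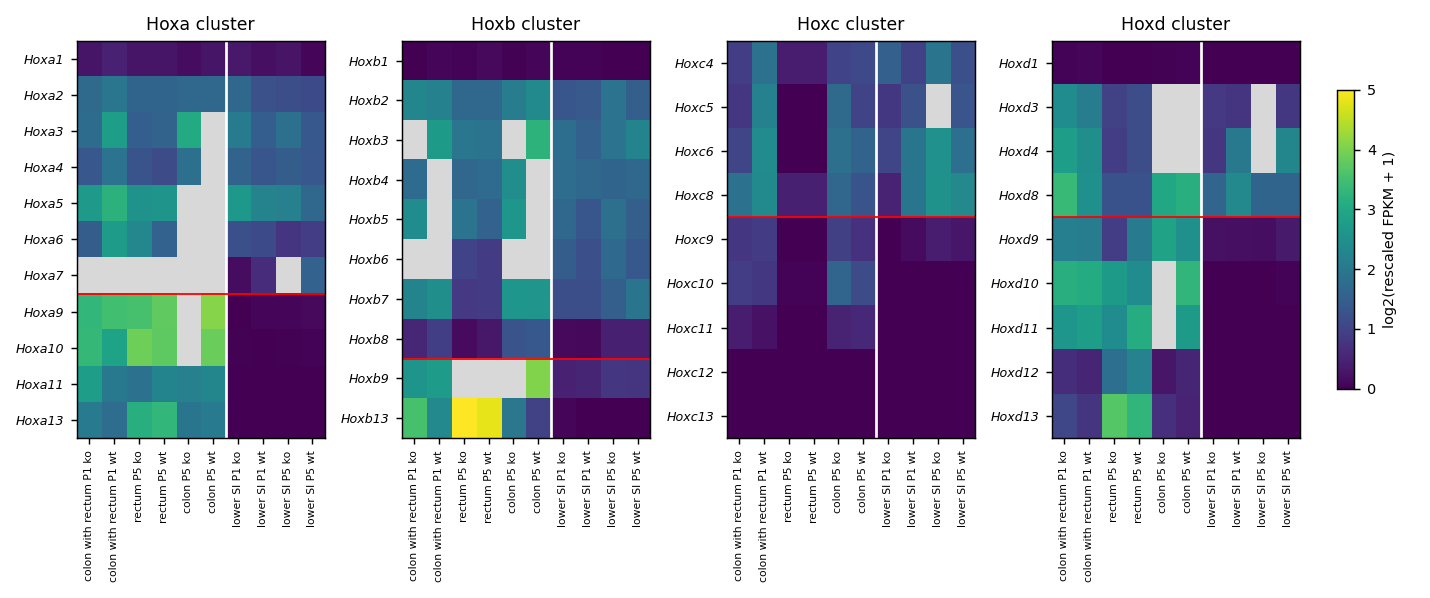
Level of each Hox gene on the log2(rescaled FPKM + 1) scale, by cluster, in the 6 large bowel libraries (left of the white line) and the 4 lower small intestine (SI) libraries; grey marks a missing value and the red line separates paralogue groups 1 to 8 (above) from 9 to 13 (below). Below the red line the lower small intestine columns are dark, with no value over 0.721 FPKM, and Hoxb13 and Hoxd13 are brightest in rectum.

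The 15 genes with the largest called rise and no overlap between regions ran from 4.43 for Car1 to 2.73 for Cyp2c55. Car1 (chr3:14766214-14808365, mm9), a cytosolic carbonic anhydrase of colonic epithelium, stood at 12.4, 28.6 and 39.8 FPKM in large bowel, against 0, 0, 0.334 and 0.172 FPKM in lower small intestine (4.43 ± 0.18, adjusted p = 1.18e-05). Atp12a (chr14:56983905-57007388, mm9), the colonic H+/K+ ATPase, stood at 4.85, 14.1 and 52.0 FPKM in large bowel, against 0.0442, 0.0322, 0.10 and 0.0343 FPKM in lower small intestine (4.03 ± 0.60, adjusted p = 0.0028). Aqp8, a water channel of colonic surface cells and a member of the colonocyte list, lay outside the 15 and stood at 10.2, 28.2 and 40.0 FPKM in large bowel, against 0.510, 4.62, 2.11 and 7.27 FPKM in lower small intestine (2.62 ± 0.24, adjusted p = 0.000544). Car1 and Aqp8 kept their calls with each library left out in turn and in each genotype alone, while Atp12a lost its call in each genotype alone.

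Saa1, an acute phase apolipoprotein, stood at 11.8, 15.3 and 40.5 FPKM in large bowel, against 0.192, 0.157, 1.71 and 0.447 FPKM in lower small intestine (3.57 ± 0.29, adjusted p = 0.000372). Wfdc2, a secreted protein with whey acidic protein domains, stood at 7.95, 10.6 and 26.6 FPKM in large bowel, against 0.576, 0.538, 1.12 and 0.287 FPKM in lower small intestine (3.10 ± 0.32, adjusted p = 0.000812). Slc6a14, a sodium- and chloride-coupled amino acid transporter, was the only nutrient transporter of a list of 17 that rose (2.88 ± 0.27, adjusted p = 0.000557), at 17.8, 23.4 and 30.7 FPKM in large bowel against 0.153, 1.93, 3.40 and 4.57 FPKM in lower small intestine. Cyp2c55, a cytochrome P450 of colon, stood at 1.86, 9.66 and 17.7 FPKM in large bowel, against 0.878, 0.575, 0.522 and 0.0341 FPKM in lower small intestine (2.73 ± 0.43, adjusted p = 0.00318). Its lowest large bowel values were those of rectum.

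Steap4, a metalloreductase, stood at 10.04, 20.4 and 30.6 FPKM in large bowel, against 1.82, 0.951, 2.69 and 0.691 FPKM in lower small intestine (2.90 ± 0.29, adjusted p = 0.000698). Oit1 rose by 2.77 ± 0.42 (adjusted p = 0.0029). The genes 1810065E05Rik (3.92 ± 0.25), 9130206I24Rik (3.05 ± 0.19) and 2610528A11Rik (2.94 ± 0.22) rose as well, and no role is given for them here. Tor1aip1, a protein of the inner nuclear membrane, was listed at 0 in all 4 lower small intestine libraries and at 4.81 to 8.87 FPKM in large bowel, but it was not called once overlapping unnamed records were added to it.

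**Figure D3:**
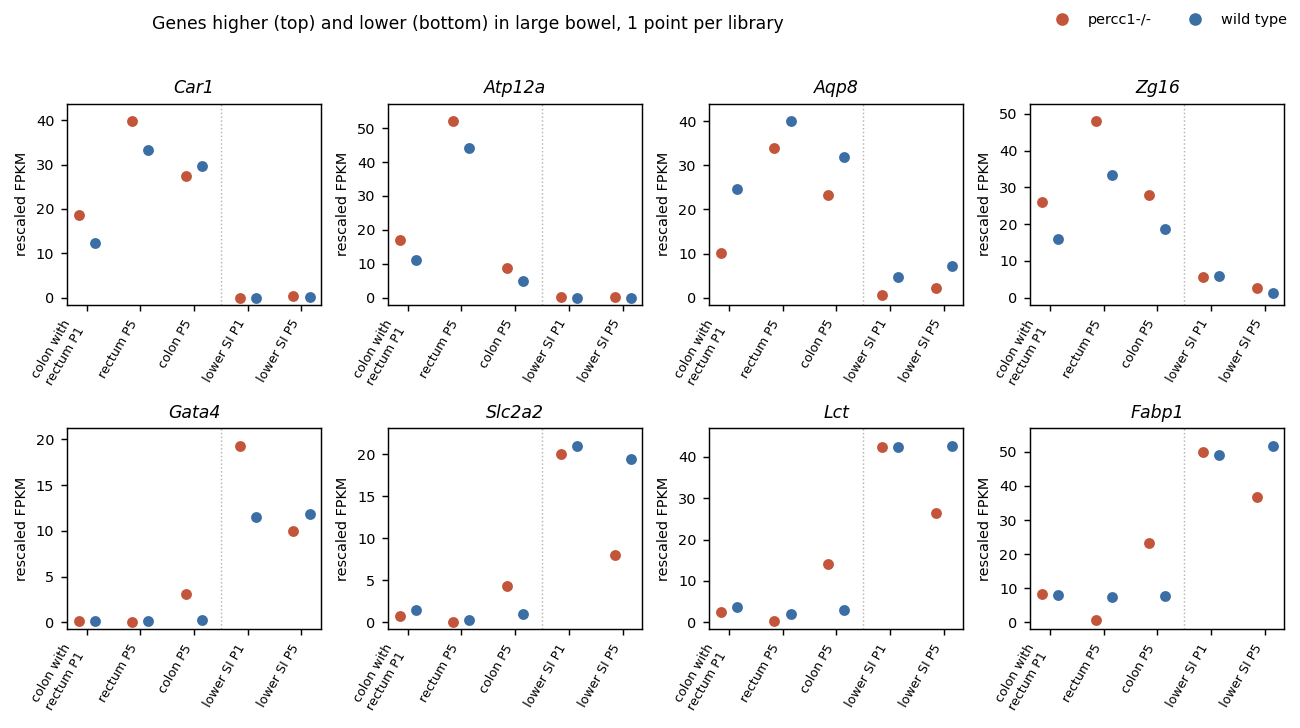
Rescaled FPKM of 4 genes higher (top) and 4 lower (bottom) in large bowel, with 1 point per library, percc1-/- in red and wild type in blue; the dotted line separates large bowel (left) from lower small intestine (SI). The regions do not overlap for any of the 8 genes, and percc1-/- colon at P5 is the highest large bowel library for Gata4, Slc2a2, Lct and Fabp1.

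The 15 largest falls ran from -3.97 for 5033403H07Rik to -2.73 for Slc9a3, and included digestive enzymes and transporters of the brush border. Lct (chr1:130181341-130224895, mm9), lactase, stood at 0.225, 2.75 and 14.2 FPKM in large bowel, against 42.2, 42.5, 26.4 and 42.6 FPKM in lower small intestine (-3.27 ± 0.58, adjusted p = 0.00489). Enpp7, the alkaline sphingomyelinase that digests milk sphingomyelin, stood at 0.0483, 0.856 and 5.0 FPKM in large bowel, against 31.5, 21.1, 10.7 and 20.9 FPKM in lower small intestine (-3.27 ± 0.57, adjusted p = 0.0046). Slc2a2, the basolateral glucose and fructose transporter, stood at 0.0515, 0.823 and 4.28 FPKM in large bowel, against 20.001, 21.0, 8.02 and 19.4 FPKM in lower small intestine (-3.06 ± 0.45, adjusted p = 0.00279). All 3 were highest, within large bowel, in percc1-/- colon at P5, the library with 129 FPKM of stomach genes, and lowest, within lower small intestine, in percc1-/- lower small intestine at P5, with 78.0 FPKM. All 3 calls held without this pair, and all 3 were lost when colon alone was compared at P5.

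Btnl2, a butyrophilin-like membrane protein, stood at 0, 1.03 and 4.50 FPKM in large bowel, against 26.2, 18.6, 11.4 and 15.3 FPKM in lower small intestine (-3.15 ± 0.45, adjusted p = 0.00235). Npc1l1, the cholesterol uptake transporter, stood at 0.0724, 2.87 and 6.44 FPKM in large bowel, against 25.7, 24.8, 20.1 and 28.1 FPKM in lower small intestine (-3.0 ± 0.52, adjusted p = 0.00464). G6pc, the catalytic subunit of glucose-6-phosphatase, fell by 3.01 ± 0.61 (adjusted p = 0.00846), Acot12, an acetyl-CoA hydrolase, by 3.03 ± 0.52 (adjusted p = 0.00451) and Mfsd2a, a lysophospholipid transporter, by 2.93 ± 0.30 (adjusted p = 0.000812). Lect2, a secreted protein best known from liver, fell by 2.84 ± 0.28 (adjusted p = 0.000666). Paqr9 and 0610008F07Rik were also among the 15, and the call of 0610008F07Rik was lost once unnamed records were added to it.

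GATA factors bind the letters AGATAA, and 3 of their genes were lower in large bowel, so the promoters of the 15 largest rises and falls were searched for this motif. Sequences are from RefSeq on GRCm38.p6, run from 250 bases before to 50 after the start on the gene's own strand, and matched 10 of the 15 rises and 12 of the 15 falls. Capitals mark AGATAA or its reverse complement TTATCT. The 3 falls shown are those with the motif whose roles are given above, and Cyp2c55 is the only one of the matched rises with it.
Lct promoter, chr1:128328269-128328568, minus strand: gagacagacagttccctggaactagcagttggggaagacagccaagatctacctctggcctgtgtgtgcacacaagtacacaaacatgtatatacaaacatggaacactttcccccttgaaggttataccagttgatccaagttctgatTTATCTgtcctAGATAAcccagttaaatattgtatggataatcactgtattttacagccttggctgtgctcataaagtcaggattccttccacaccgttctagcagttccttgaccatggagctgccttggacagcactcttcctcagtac
Enpp7 promoter, chr11:118987931-118988230, plus strand: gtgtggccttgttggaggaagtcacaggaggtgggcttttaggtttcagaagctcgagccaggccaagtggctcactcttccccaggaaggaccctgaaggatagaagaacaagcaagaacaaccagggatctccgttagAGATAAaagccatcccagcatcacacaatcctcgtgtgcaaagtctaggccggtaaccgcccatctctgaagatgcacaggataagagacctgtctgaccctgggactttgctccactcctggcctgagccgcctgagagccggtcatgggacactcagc
Btnl2 promoter, chr17:34354572-34354871, plus strand: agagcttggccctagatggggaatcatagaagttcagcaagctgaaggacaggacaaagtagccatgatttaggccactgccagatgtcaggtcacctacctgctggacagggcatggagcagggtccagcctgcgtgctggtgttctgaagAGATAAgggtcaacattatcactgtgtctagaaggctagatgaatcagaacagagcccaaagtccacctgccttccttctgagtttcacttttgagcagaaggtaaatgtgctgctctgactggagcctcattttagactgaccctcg
Cyp2c55 promoter, chr19:39006769-39007068, plus strand: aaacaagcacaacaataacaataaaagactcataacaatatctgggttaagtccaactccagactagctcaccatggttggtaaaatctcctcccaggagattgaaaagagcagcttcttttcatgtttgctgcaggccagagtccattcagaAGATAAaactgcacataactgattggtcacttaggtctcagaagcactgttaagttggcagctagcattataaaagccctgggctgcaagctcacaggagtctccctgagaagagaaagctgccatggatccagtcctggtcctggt
The motif stood in 4 of the 12 promoters of falls, the fourth being 5033403H07Rik, and in 1 of the 10 of rises. It was present in 3083 of 27025 promoters of the same length (11.4%) and in 6.75% of those of tested genes, 6.11% of genes called higher and 8.07% of genes called lower. The letters searched for CDX (TTTATG), HNF4 (CAAAGTCC) and the TATA box (TATAAA), each on both strands, stood in 7.03%, 2.34% and 7.37% of the promoters of genes called lower, and in 6.67%, 1.5% and 7.39% of those of all tested genes. The CDX, HNF4 and TATA letters stood in 1, 2 and 2 of the 12 promoters of falls, and in 3, 0 and 4 of the 10 of rises. The letters of CDX and TATA differ only at one end. A match is a description of these letters and shows no binding.

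Regional transcription factors moved both ways. Of 34 tested, 7 rose and 10 fell, against 13.5% and 12.4% of all genes. Without wild-type lower small intestine at P5 3 rose and 8 fell, and in wild type alone 2 and 5 of 33 did. Gata4 (chr14:63817752-63864097, mm9), which sets jejunal against ileal identity, stood at 0.0195, 0.184 and 3.13 FPKM in large bowel, against 19.3, 11.5, 10.005 and 11.8 FPKM in lower small intestine (-3.28 ± 0.39, adjusted p = 0.00138). The value of 3.13 came from percc1-/- colon at P5, and the other 5 large bowel libraries were at no more than 0.275 FPKM. Gata5 stood at 0.164, 1.74 and 4.28 FPKM in large bowel, against 15.5, 12.9, 11.6 and 11.4 FPKM in lower small intestine (-2.44 ± 0.40, adjusted p = 0.00363). Gata6, which is needed along the whole intestine, stood at 5.41, 6.60 and 9.26 FPKM in large bowel, against 20.8, 19, 14.3 and 15.2 FPKM in lower small intestine (-1.16 ± 0.15, adjusted p = 0.00198). The 3 factors thus differed in how much remained in large bowel.

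Satb1, a chromatin organiser, rose by 1.47 ± 0.23 (adjusted p = 0.00314). The enterocyte regulator Hnf4a fell (-0.56 ± 0.11, adjusted p = 0.00781). Maf and Tbx3 also fell, with differences of -1.10 and -0.98. The caudal factors that define intestine as such did not pass the test, with differences of 0.06 ± 0.14 for Cdx1 (adjusted p = 0.791) and -0.63 ± 0.33 for Cdx2 (adjusted p = 0.191).

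Most absorption genes of small intestine were lower in large bowel. Of 19 tested genes of fat absorption, 16 fell and the other 3 did not pass, with a median difference of -1.40, and their summed level was 157, 301 and 403 FPKM in large bowel, against 1002, 819, 668 and 799 FPKM in lower small intestine. Of 13 brush border hydrolases 8 fell and 5 did not pass (median -1.17), and of 17 nutrient transporters 1 rose and 11 fell (median -1.20). The same share of all genes that fell was 12.4%, and the median over all genes was 0.03. In dissected tissue, fewer cells of a type and less RNA per cell cannot be told apart. Without the pair of libraries with stomach genes, 16 fat absorption genes, 8 hydrolases and 10 transporters fell. Without wild-type lower small intestine at P5, 7, 5 and 9 did, and in wild type alone 12, 5 and 9.

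Acsl5, which activates long-chain fatty acids, stood at 14.7, 19.7 and 27.2 FPKM in large bowel, against 146, 60.9, 52.8 and 65.7 FPKM in lower small intestine (-1.79 ± 0.23, adjusted p = 0.0018). Dgat2, which makes triglyceride, stood at 15.4, 16.8 and 22 FPKM in large bowel, against 67.0, 44.8, 42.8 and 43.1 FPKM in lower small intestine (-1.40 ± 0.14, adjusted p = 0.000812). Slc5a1, the sodium-glucose transporter of the brush border, stood at 9.13, 10.03 and 13.7 FPKM in large bowel, against 33.1, 26.8, 19.2 and 24.5 FPKM in lower small intestine (-1.12 ± 0.14, adjusted p = 0.00163). These 3 did not overlap between regions and kept their calls with each library left out.

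Fabp1, the fatty acid binding protein of liver and enterocytes, stood at 0.807, 7.92 and 23.3 FPKM in large bowel, against 49.9, 49.1, 36.8 and 51.7 FPKM in lower small intestine (-2.52 ± 0.58, adjusted p = 0.0139). Apoa1, a main apolipoprotein of high density lipoprotein, stood at 12.5, 35.1 and 41.9 FPKM in large bowel, against 81.1, 78.5, 58.9 and 73.6 FPKM in lower small intestine (-1.27 ± 0.31, adjusted p = 0.0168). Neither overlapped between regions, but without wild-type lower small intestine at P5 the calls of Fabp1 (-2.44, adjusted p = 0.0598) and Apoa1 (-1.14, adjusted p = 0.079) were lost. Apob, the structural protein of chylomicrons, did not pass the test (-1.74 ± 0.61, adjusted p = 0.0623), with 1.74 and 5.27 FPKM in rectum, 24.8 and 22.4 FPKM in colon at P5 and 36.2 to 54.9 FPKM in lower small intestine. It passed without percc1-/- colon at P5 (adjusted p = 0.0284) or percc1-/- rectum at P5 (0.0395).

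Genes of neonatal protein uptake were also lower, with 13 of 18 falling and 5 not passing (median -0.94), against 12.4% of all genes falling. Without wild-type lower small intestine at P5 8 fell, and in wild type alone 7 fell and 1 rose. Fcgrt, the neonatal Fc receptor that carries maternal IgG across the epithelium, stood at 16.1, 19.2 and 27.3 FPKM in large bowel, against 53.3, 54.9, 42.9 and 61.4 FPKM in lower small intestine (-1.35 ± 0.16, adjusted p = 0.00132). The lysosomal protease Ctsl (-0.99 ± 0.11, adjusted p = 0.00122) fell too. The uptake receptor Cubn and its partner Amn did not pass the test (-1.21 ± 0.64, adjusted p = 0.199, and -1.92 ± 0.63, adjusted p = 0.0516). Their large bowel values were split, Cubn standing at 1.5 and 2.16 FPKM in rectum and at 16.6 and 18.3 FPKM in colon at P5.

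Of 11 genes of the urea cycle and of arginine metabolism, which the suckling intestine uses to make arginine and citrulline, 1 rose and 7 fell (median -0.86), and 4 fell without wild-type lower small intestine at P5. Of all genes, 13.5% rose and 12.4% fell. Ass1, argininosuccinate synthase, stood at 11.2, 13.7 and 15.2 FPKM in large bowel, against 25.7, 30.9, 22.1 and 33.2 FPKM in lower small intestine (-0.96 ± 0.13, adjusted p = 0.00198). Cps1, carbamoyl phosphate synthetase, fell by 1.79 ± 0.47 (adjusted p = 0.023), a call lost without percc1-/- (0.0561) or wild-type (0.102) lower small intestine at P5. The gene that rose was Arg2, mitochondrial arginase, which was listed at 0 in all 4 lower small intestine libraries and in 1 large bowel library, and whose call was lost in each genotype alone and at P1 alone. Of 13 genes of fatty acid oxidation and ketone production 9 fell and 4 did not pass (median -0.47), among them Cpt1a, which admits fatty acids to mitochondria, by 0.64 ± 0.10 (adjusted p = 0.00358). Of these 13, 4 fell without wild-type lower small intestine at P5, 5 with upper-quartile rescaling and 6 without rescaling, and 4 of 14 in wild type alone.

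The bile acid genes of ileum gave a mixed picture, with 2 of 10 rising and 4 falling, against 13.5% and 12.4% of all genes. Neither rise was called without wild-type lower small intestine at P5 or in wild type alone. Slc10a2, the ileal sodium-bile acid cotransporter, stood at 0.842, 6.30 and 8.92 FPKM in large bowel, against 0.454, 0.571, 2.81 and 0.204 FPKM in lower small intestine. The rise of 1.70 ± 0.49 was called (adjusted p = 0.0323), but leaving out any 1 of 7 libraries ended the call (adjusted p = 0.0556 to 0.109). In the lower small intestine of older mice, outside the comparison and before rescaling, it stood at 8.32 FPKM in percc1-/- and 0.800 FPKM in wild type at P10, and at 16.1 FPKM in percc1-/- and 23.5 FPKM in wild type at P20. Fabp6, the ileal bile acid binding protein, stood at 1.86, 11.6 and 22.6 FPKM in large bowel, against 2.26, 5.25, 28.7 and 20.7 FPKM in lower small intestine, and did not differ beyond the spread (-0.13 ± 0.78, adjusted p = 0.919). Nr0b2, a repressor induced by bile acids, fell by 2.12 ± 0.26 (adjusted p = 0.00172).

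Of 23 tested colonocyte genes, 9 rose and 1 fell (median 0.21), and 3 fell without the pair with stomach genes. Some that rose, such as Car1 and Atp12a, averaged 1 FPKM through large bowel alone. At a mean of at least 5 FPKM, 9 of 20 rose and 1 fell. Of 13 genes of the epithelial sodium channel and its control 3 rose and 1 fell, against 13.5% and 12.4% of all genes, and in wild type alone 1 of 12 rose and 2 fell. Scnn1b, the channel's beta subunit, stood at 1.5, 4.73 and 13.3 FPKM in large bowel, against 0.0966, 0.158, 1.11 and 0.197 FPKM in lower small intestine (2.0 ± 0.37, adjusted p = 0.00585). The alpha and gamma subunits did not pass the test, with -0.21 ± 0.34 for Scnn1a (adjusted p = 0.688) and 1.12 ± 0.49 for Scnn1g (adjusted p = 0.121). Hsd11b2, which shields the mineralocorticoid receptor from glucocorticoids, stood at 4.59, 6.74 and 15.8 FPKM in large bowel, against 0.346, 0.515, 0.882 and 0.697 FPKM in lower small intestine (2.33 ± 0.22, adjusted p = 0.000581). The receptor itself, Nr3c2, rose by 0.93 ± 0.13 (adjusted p = 0.00243). In wild-type libraries alone the calls of Scnn1b and Nr3c2 were lost.

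The sodium-hydrogen exchangers moved apart. Slc9a2 stood at 8.11, 14.1 and 15.4 FPKM in large bowel, against 2.10, 2.68, 8.65 and 3.63 FPKM in lower small intestine (1.37 ± 0.19, adjusted p = 0.00213). Slc9a3 stood at 0.292, 2.19 and 7.96 FPKM in large bowel, against 30.8, 15.04, 23.1 and 13.9 FPKM in lower small intestine (-2.73 ± 0.50, adjusted p = 0.00546). Slc26a3, the chloride-bicarbonate exchanger of adult colon, was not called higher. It stood at 0.529 and 0.457 FPKM in rectum, 19.1 and 13 FPKM in colon at P5, 8.94 and 7.76 FPKM in colon with rectum at P1 and 39.6, 40.0, 17.4 and 37.6 FPKM in lower small intestine (-2.29 ± 0.78, adjusted p = 0.0577). That difference passed the threshold without percc1-/- colon at P5 (-2.71, adjusted p = 0.0182) or wild-type colon at P5 (-2.59, 0.0421). Car4, a membrane carbonic anhydrase of adult colon, was too low to be tested, at 0.0845 to 2.60 FPKM in large bowel.

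Goblet cell genes were mostly higher in large bowel, with 13 of 24 rising and 1 falling, against 13.5% and 12.4% of all genes (median 0.67, 20 of 24 positive). Without the pair with stomach genes 14 rose, and in wild-type libraries alone 5 rose and 2 fell. Some of the genes that rose, such as Best2, averaged 1 FPKM through large bowel alone, so the filter shapes part of this count. At a mean of at least 5 FPKM, 9 of 19 rose and 1 fell. Zg16, a lectin that binds bacterial peptidoglycan in mucus, stood at 15.8, 26.9 and 48.0 FPKM in large bowel, against 5.71, 5.89, 2.56 and 1.28 FPKM in lower small intestine (2.68 ± 0.36, adjusted p = 0.00205). Best2, a bestrophin channel of colonic goblet cells, stood at 1.5, 5.37 and 17.0 FPKM in large bowel, against 0.0591, 0, 0.125 and 0 FPKM in lower small intestine (2.49 ± 0.44, adjusted p = 0.00502). Klk1, a kallikrein of colonic goblet cells, stood at 15.5, 17.9 and 31.6 FPKM in large bowel, against 1.95, 4.55, 7.90 and 3.63 FPKM in lower small intestine (1.99 ± 0.26, adjusted p = 0.002). The calls of Zg16 and Best2 were lost in wild-type libraries alone, where 5 libraries entered, and that of Klk1 was kept.

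Sval1, a relative of seminal vesicle antigen, rose by 3.09 ± 0.37 (adjusted p = 0.00159) and Retnlb, a bactericidal resistin-like protein, by 2.06 ± 0.32 (adjusted p = 0.00316). Tff3, the trefoil peptide, stood at 30.7, 35.3 and 45.9 FPKM in large bowel, against 26.7, 36.6, 33.2 and 38.7 FPKM in lower small intestine (0.11 ± 0.13, adjusted p = 0.567). Agr2, which folds mucin, did not pass (0.43 ± 0.17, adjusted p = 0.0964), but did with upper-quartile rescaling (0.0452). The secretory fate regulators Atoh1 (1.11 ± 0.30, adjusted p = 0.027) and Spdef (0.75 ± 0.17, adjusted p = 0.0143) rose, but without wild-type lower small intestine at P5 neither was called (adjusted p = 0.119 and 0.0596). Atoh1 was also not called without percc1-/- (0.0684) or wild-type (0.0809) colon with rectum at P1. Guca2b, uroguanylin, was the goblet list gene that fell, at 13.6, 18.5 and 22 FPKM in large bowel against 36.9, 40.3, 32.4 and 36.5 FPKM in lower small intestine (-0.97 ± 0.13, adjusted p = 0.00197).

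Muc2, the gel-forming mucin, has no record under its symbol. In its interval (chr7:148876268-148940595, mm9, GENCODE) the highest unnamed record of each library stood at 29.0 to 44.2 FPKM in large bowel and at 20.02 to 36.7 FPKM in lower small intestine, and the ranges overlap. Among membrane mucins Muc4 rose (0.96 ± 0.18, adjusted p = 0.00649) and Muc13 fell (-0.81 ± 0.20, adjusted p = 0.0164). The call of Muc13 was lost without either library of colon with rectum at P1 (adjusted p = 0.0512 and 0.0552) or wild-type lower small intestine at P5 (0.0521).

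Of 21 crypt and stem cell genes, 3 rose and 2 fell, shares near the 13.5% and 12.4% of all genes, and no rise and 1 fall was called without wild-type lower small intestine at P5. Of 23 proliferation genes 0 were called by limma (4 at an unadjusted p under 0.05, and 3 called with upper-quartile rescaling). Their median difference was 0.23, and 21 of the 23 differences were positive. Lgr5, the stem cell receptor, stood at 0.981, 3.35 and 5.0 FPKM in large bowel, against 2.02, 2.72, 2.62 and 3.28 FPKM in lower small intestine (0.11 ± 0.32, adjusted p = 0.835). Olfm4, a marker of small intestinal stem cells, stood at 0.659, 2.59 and 11.6 FPKM in large bowel, against 13.7, 20.3, 19.9 and 23.7 FPKM in lower small intestine (-2.16 ± 0.49, adjusted p = 0.0126). Its call was lost without wild-type lower small intestine at P5 (-1.74, adjusted p = 0.0666). Tert, telomerase reverse transcriptase, fell by 1.39 ± 0.25 (adjusted p = 0.00518). Among 22 Wnt and Bmp genes 4 rose and 1 fell, against 13.5% and 12.4% of all genes, and 7 of 21 rose without the pair with stomach genes. Sfrp2, a secreted Wnt modulator, rose by 1.59 ± 0.20 (adjusted p = 0.0018), and the gene that fell was Bmp7, a Bmp ligand (-1.12 ± 0.16, adjusted p = 0.00239).

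The wall of the large bowel gave higher values for nerve and muscle genes. Of 21 enteric neuron genes 12 rose (median 0.82), of 7 glial genes 4 (0.81), of 5 genes of interstitial cells of Cajal 4 (0.84), and of 19 smooth muscle genes 13 (0.59), and the rest of each list did not pass the test. Of all genes, 13.5% rose and the median was 0.03. Without wild-type lower small intestine at P5, 10, 2, 2 and 3 rose, and without the pair with stomach genes 15, 5, 4 and 17 did. In wild type alone 1 glial gene and 1 gene of interstitial cells rose, and without rescaling 8 smooth muscle genes did. At a mean of at least 5 FPKM, 7 of 12 neuron genes, 4 of 4 genes of interstitial cells and 12 of 16 smooth muscle genes rose. The only glial gene at that level was not called (-0.39), so the glial rise rests on genes at low levels. Hand2 is counted in both the neuron and the smooth muscle list. Nos1, the neuronal nitric oxide synthase of inhibitory motor neurons, stood at 5.55, 7.42 and 10.2 FPKM in large bowel, against 1.21, 0.753, 2.99 and 1.44 FPKM in lower small intestine (1.72 ± 0.17, adjusted p = 0.000636). Ano1, the chloride channel of interstitial cells of Cajal, stood at 11.5, 19.4 and 30.2 FPKM in large bowel, against 3.90, 4.38, 7.72 and 5.02 FPKM in lower small intestine (1.63 ± 0.25, adjusted p = 0.00285). Myh11, smooth muscle myosin, stood at 58.0, 66.8 and 99.3 FPKM in large bowel, against 39.6, 32.6, 52.4 and 40.6 FPKM in lower small intestine (0.72 ± 0.14, adjusted p = 0.00654).

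The neural crest regulator Sox10 rose (1.07 ± 0.17, adjusted p = 0.00314), as did Edn3, the endothelin that neural crest cells need to reach the hindgut (1.17 ± 0.20, adjusted p = 0.00406). The receptors that guide the same cells did not pass the test, with -0.19 ± 0.10 for Ret (adjusted p = 0.193) and -0.05 ± 0.10 for Ednrb (adjusted p = 0.768). Among 12 mesenchymal genes 4 rose and 8 did not pass, while 13.5% of all genes rose. Of the mesenchymal genes, 2 rose without wild-type lower small intestine at P5 or without rescaling, and 7 with upper-quartile rescaling or without the pair with stomach genes. The widest gap was that of Mfap5, a microfibril protein (2.10 ± 0.27, adjusted p = 0.0019). Of 12 leukocyte genes 1 rose and 2 fell, against 13.5% and 12.4% of all genes. Most of the 12 differences (10) were positive, with a median of 0.17. Csf1r, the macrophage growth factor receptor, was among those that fell. It stood at 6.19, 9.21 and 10.4 FPKM in large bowel, against 14.2, 19.8, 15.9 and 23.5 FPKM in lower small intestine (-0.98 ± 0.10, adjusted p = 0.000997). Ptprc, which all leukocytes carry, did not pass (0.49 ± 0.20, adjusted p = 0.101). Of 20 antimicrobial genes, a list that includes bacterial sensors, 3 rose and 1 fell (median 0.02), shares not above those of all genes by much. At a mean of at least 5 FPKM, 0 of 9 were called. Within this list the sensors Tlr2 (1.32 ± 0.15, adjusted p = 0.00136) and Tlr4 (0.94 ± 0.20, adjusted p = 0.0105) rose. Tlr5, the flagellin receptor, fell (-0.95 ± 0.19, adjusted p = 0.00827).

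**Figure D4:**
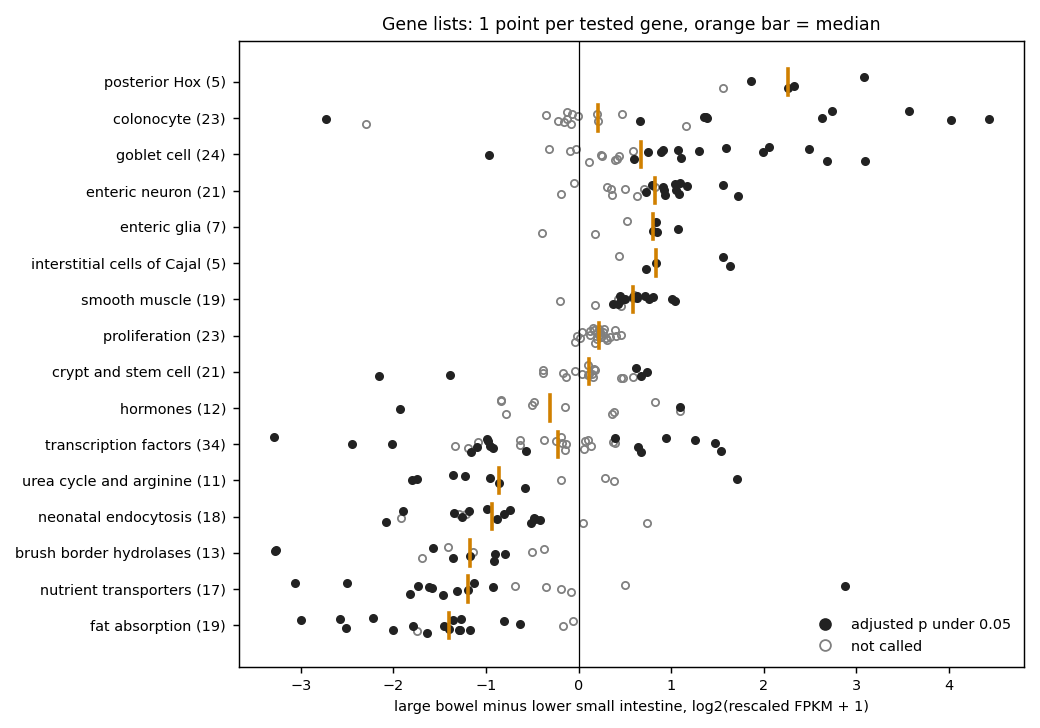
Difference of each tested member of 16 gene lists, large bowel minus lower small intestine on the log2(rescaled FPKM + 1) scale, with filled points for called genes, open points for the rest, a bar at each list's median and the number tested in brackets. The medians of the neuron, glia and muscle lists lie right of 0, and those of the fat absorption (-1.40), transporter (-1.20) and hydrolase (-1.17) lists left of it. The proliferation list has a median of 0.23, with 21 of 23 genes above 0 and 0 called.

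Of 12 hormone genes tested with region, Penk rose and Gip fell, against 13.5% and 12.4% of all genes. The call of Penk, which is also counted in the enteric neuron list, was lost without any 1 of 5 libraries (adjusted p = 0.0531 to 0.0754). Insl5, a peptide of colonic L cells, stood at 0.0794, 0 and 0.429 FPKM in percc1-/- and at 6.48, 19 and 7.21 FPKM in wild type (colon with rectum at P1, rectum at P5, colon at P5), against 0.510 and 0 FPKM in percc1-/- and 0.928 and 1.29 FPKM in wild-type lower small intestine. In wild-type large bowel it was thus higher than in wild-type lower small intestine, and it was low in all percc1-/- libraries of this comparison. In the top part of the small intestine, outside the comparison and before rescaling, Insl5 stood at 1.47 and 5.33 FPKM in percc1-/- at P1 and P5. In wild type it stood there at 9.79 and 4.83 FPKM. The region difference of Insl5 over all 10 libraries was not called (1.1 ± 0.50, adjusted p = 0.137). Pyy, a satiety peptide of the same cells, stood at 0.337 to 0.764 FPKM in percc1-/- and 17.8 to 25.6 FPKM in wild-type large bowel, and at 0 and 0.298 FPKM in percc1-/- and 13.6 and 17.2 FPKM in wild-type lower small intestine. Gip, an incretin of upper small intestinal K cells, stood at 0 to 0.500 FPKM in large bowel, against 0, 19.4, 0.305 and 13.2 FPKM in lower small intestine. Its region difference of -1.92 ± 0.62 was called (adjusted p = 0.0495) and was lost without any 1 of 6 libraries.

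Whether the region difference itself changed with genotype or stage was tested by interaction. By genotype, 1 gene of 13280 (0.00753%) passed, Gins2, a subunit of the replicative helicase, and 561 genes had an unadjusted p under 0.05. It stood at 7.90 to 10.4 FPKM in percc1-/- and 9.35 to 10.6 FPKM in wild-type large bowel, and at 6.06 and 7.32 FPKM in wild-type lower small intestine, but was listed at 0 in both percc1-/- lower small intestine libraries (interaction 2.84 ± 0.24, adjusted p = 0.0264). The call was lost without any 1 of 7 libraries, with a pseudocount of 5 and with upper-quartile rescaling. Whether the listed 0 values of Gins2 are failed estimates was not checked. Next in order was Gip (3.60 ± 0.36, adjusted p = 0.051), followed by Ppy, which encodes pancreatic polypeptide (-2.23 ± 0.30, adjusted p = 0.264). By stage, 0 genes (0%) passed in limma and 1071 had an unadjusted p under 0.05, the smallest being that of Kcnj13, a potassium channel (-2.31 ± 0.23, adjusted p = 0.0815). In simulated data at this size, with changes placed only in genes at higher levels, 65% and 60% of genotype and stage interactions of 2 (log2) were recovered. Of those of 1, 11% and 6% were recovered, so smaller ones could be missed.

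Rectum and colon at P5, with 2 libraries each, differed in 138 genes (1.04%), 36 (0.271%) higher and 102 (0.768%) lower in rectum. The calls rest on few libraries: 55 genes were called without percc1-/- colon, 89 without wild-type colon, 47 without percc1-/- rectum and 88 without wild-type rectum. Without the pair of libraries with stomach genes, which leaves colon with 1 library that is assumed to vary like the others, 18 were called, 3 higher and 15 lower. In this comparison differences are rectum minus colon.

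The genes highest in rectum included the last Hox genes. Hoxb13 stood at 31.2 and 27.1 FPKM in percc1-/- and wild-type rectum, against 2.97 and 0.962 FPKM in percc1-/- and wild-type colon (3.43 ± 0.34, adjusted p = 0.00454). Hoxd13 stood at 11.9 and 8.73 FPKM in rectum, against 0.609 and 0.420 FPKM in colon (2.89 ± 0.21, adjusted p = 0.00138). Hoxa13 stood at 7.95 and 8.87 FPKM in rectum, against 2.82 and 3.20 FPKM in colon (1.23 ± 0.19, adjusted p = 0.0324). Hoxd12, too low to be tested, ran the same way, at 2.55 to 3.68 FPKM in rectum and 0.234 to 0.436 FPKM in colon. The Hoxc genes ran the other way, with Hoxc5, Hoxc6 and Hoxc9 listed at 0 in both rectum libraries, and Hoxc6 at 2.01 to 2.57 FPKM in colon. Hoxb7 was lower in rectum, at 0.782 and 0.852 FPKM against 5.14 and 5.06 FPKM in colon (-1.75 ± 0.19, adjusted p = 0.00566). The rectum calls of Hoxb13, Hoxd13, Hoxa13 and Hoxb7 were all lost without the pair with stomach genes, at differences of 3.70, 2.86, 1.14 and -1.69. That of Hoxa13 was also lost without any 1 of 8 libraries (adjusted p = 0.0526 to 0.274), and that of Hoxb7 without percc1-/- colon (0.077), percc1-/- rectum (0.0607) or wild-type rectum (0.0566).

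Atp12a stood at 52.0 and 44.2 FPKM in rectum, against 8.72 and 4.85 FPKM in colon (2.70 ± 0.22, adjusted p = 0.00212). Cyp2d13, a cytochrome P450, stood at 12.2 and 9.77 FPKM in rectum, against 0.806 and 0.414 FPKM in colon (2.90 ± 0.20, adjusted p = 0.0013). These 2 calls were kept without the pair with stomach genes. Tnni1, slow skeletal troponin I, stood at 8.51 and 8.31 FPKM in rectum, against 0.768 and 0.672 FPKM in colon (2.45 ± 0.21, adjusted p = 0.00261), and 2310079G19Rik at 10.6 and 8.20 FPKM against 0 in both (3.37 ± 0.26, adjusted p = 0.00199). Of 4 tested skeletal muscle genes 0 were called by limma between rectum and colon (0 at an unadjusted p under 0.05), and the summed level of 18 was 22.7 and 20.5 FPKM in percc1-/- and wild-type rectum and 18.1 and 22.5 FPKM in percc1-/- and wild-type colon. The epithelial genes Tgm3 (3.01 ± 0.41, adjusted p = 0.0191) and Trpv3 (2.63 ± 0.40, adjusted p = 0.0296) lost their calls without any 1 of the 4 libraries compared.

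Several genes were far lower in rectum than in colon. Lgals2 (chr15:78681290-78685959, mm9), a galectin, was listed at 0 in both rectum libraries and stood at 17.5 and 13.5 FPKM in colon (-4.03 ± 0.18, adjusted p = 0.00019). Mfi2, melanotransferrin, stood at 0.833 and 1.57 FPKM in rectum, against 21.1 and 23.1 FPKM in colon (-3.41 ± 0.12, adjusted p = 9.79e-05). Mamdc4, an apical endocytic protein, stood at 2.88 and 4.83 FPKM in rectum, against 34.6 and 40.4 FPKM in colon (-3.01 ± 0.16, adjusted p = 0.000324). Colon thus lay between rectum and lower small intestine for Lgals2, Mfi2 and Mamdc4.

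Slc26a3 (-3.49 ± 0.33, adjusted p = 0.00417) and Naaladl1, an aminopeptidase-like protein (-3.31 ± 0.15, adjusted p = 0.00019), were also lower in rectum. The uptake receptors Cubn (-2.71 ± 0.21, adjusted p = 0.00175) and Amn (-2.78 ± 0.16, adjusted p = 0.000486) followed. All of these, with Lgals2, Mfi2 and Mamdc4, kept their calls without the pair with stomach genes. Slc6a19, the neutral amino acid transporter (-2.94 ± 0.28, adjusted p = 0.00454), Apob (-2.57 ± 0.31, adjusted p = 0.0108) and Cdx2 (-1.48 ± 0.11, adjusted p = 0.00175) did not, and Apob also lost its call without percc1-/- colon alone (0.118). Of the absorption lists, 6 of 19 fat absorption genes, 5 of 13 hydrolases, 3 of 18 endocytic genes and 1 of 17 nutrient transporters were lower in rectum, against 0.768% of all genes lower.

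**Figure D5:**
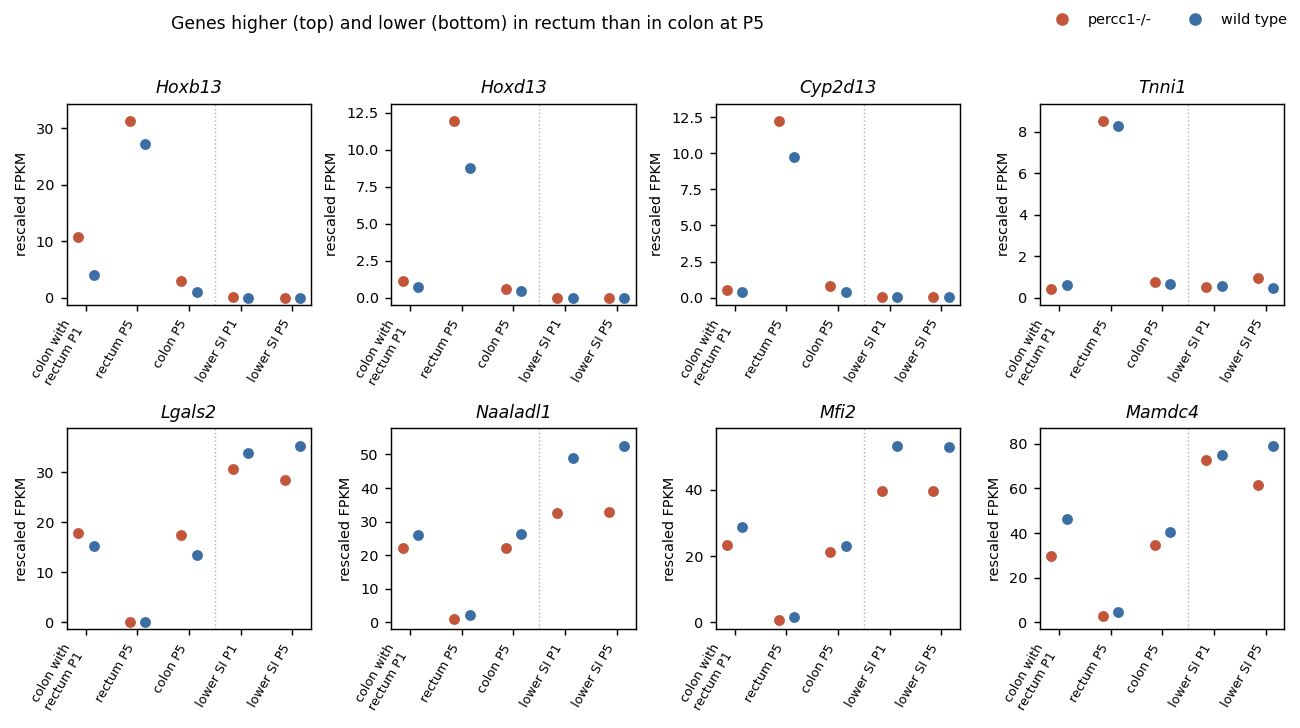
Rescaled FPKM of 4 genes higher (top) and 4 lower (bottom) in rectum than in colon at P5, with 1 point per library, percc1-/- in red and wild type in blue; the dotted line separates large bowel (left) from lower small intestine (SI). In the top row the rectum points stand apart from all others, and in the bottom row the rectum points are the lowest while colon keeps 13.5 FPKM or more of Lgals2 and 21.1 FPKM or more of Mfi2.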

How the data were processed

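Total RNA of the 10 libraries was sequenced, and for each library the authors deposited a gene table of FPKM values from Cufflinks, which are not counts, so depth is unknown and no counting interval is given. TopHat2 2.0.13, SAMtools 0.1.18, Cufflinks 2.2.1 and mm9 are named in the submitters' processing notes, but no source used here names the annotation. Records of 1 symbol were summed within a library, joined names were kept as 1 feature (317), records without a symbol were left out (named records hold 19.1% to 30.6% of the FPKM sum), and 1082 features of at least 1 FPKM that lack a value in some library were not tested. Libraries were rescaled by median ratios over genes above 1 FPKM in every library (factors 0.904 to 1.079).

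R 4.3.3 with limma 3.58.1 was run on log2(FPKM + 1) with a trended, robust prior and with stage and genotype as additive terms, for genes averaging 1 FPKM or more. Rectum against colon came from means of the 5 region and stage groups. Python 3.11.15 made the tables and figures. On simulated data 99% of region differences of 2 and 86% of those of 1 (log2) were recovered, and 11 of 196 region calls were false. For rectum against colon 85% and 27% were recovered. Changes were placed only in genes at higher levels, with independent noise, so recovery of genes at low levels was not measured. Named genes are the 15 largest called rises and falls without overlap, members of gene lists, up to 8 genes each way for rectum against colon, and for an interaction the called genes or, with under 5 of them, the 5 smallest p-values. Some genes that this rule picks are not reported here. The comparison, members and lists were chosen with earlier results of these data known. Alternatives changed the pseudocount (0.1, 5), the low-value filter, rescaling, prior, unnamed records, genotype, stage and libraries. Gene positions are those of the deposited gene tables (mm9 by the processing notes), except that of Muc2, which is from GENCODE on mm9. Promoters are from RefSeq on GRCm38.p6, and 1 build was never converted to the other.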

Additional observations from a re-analysis of the deposited data

Results flagged for a closer look

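In 32 of 316 groups of 4 or 6 libraries, 1 library stood apart from the rest by Dixon's criterion. Its rate of about 1 in 20 holds for like replicates with normal spread. The groups here join stages, genotypes and, in large bowel, dissections, and many genes were picked by their values. The number of flags therefore cannot be set against that rate. A total of 14 flags fell on percc1-/- lower small intestine at P5, the library with squamous and stomach genes. It was the highest of the 4 lower small intestine libraries for 1810065E05Rik (1.5 FPKM), Abcc3 (3.64), Cym (35.8), Lrig1 (18.5), Nefl (2.62), Retnlb (1.63), Scnn1b (1.11), Slc10a2 (2.81), Tgm3 (2.96) and Trpv3 (2.55). It was the lowest of them for Apoc3 (37.2 FPKM), Lct (26.4), Slc26a3 (17.4) and Slc2a2 (8.02). The squamous list summed to 218 FPKM in this library, and its part in these values was not tested.

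A further 8 flags fell on percc1-/- colon at P5, the library with 129 FPKM of stomach genes. It was the highest of the 6 large bowel libraries for 5033403H07Rik (1.31 FPKM), Acot12 (2.54), Btnl2 (4.50), Fabp1 (23.3), Gata4 (3.13), Lct (14.2), Paqr9 (1.69) and Slc2a2 (4.28). All of these genes were higher in lower small intestine than in large bowel. Whether the stomach RNA accounts for them was not tested.

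The percc1-/- lower small intestine at P1 was the highest of its region for the fat absorption genes Acsl5 (146 FPKM), Dgat2 (67.0) and Mttp (119), and for Hoxb13 (0.0443). Wild-type lower small intestine at P5 was the highest of its region for Hoxd9 (0.291 FPKM). Among large bowel libraries, percc1-/- rectum at P5 was the lowest for Bmp7 (3.51 FPKM) and the highest for Scnn1g (10.5). Wild-type colon with rectum at P1 was the highest for Fgf15 (4.34 FPKM) and Hoxa2 (2.90), and wild-type colon at P5 for Kit (15.1).

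The region difference of Gins2 was larger in percc1-/- than in wild type by 2.84 ± 0.24 on the log2 scale (limma interaction, adjusted p = 0.0264), with the gene listed at 0 in both percc1-/- lower small intestine libraries and above 6 FPKM in the other 8. An exact 0 can be a failed estimate, which was not checked for this gene. The call was also lost with upper-quartile rescaling and when any of several single libraries was left out.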

How the results depend on the processing

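No paired analysis was possible because the labels carry no replicate numbers. Blocking on the 4 stage and genotype combinations gave 3190 calls by region. The 3438 calls (1787 higher, 1651 lower) became 2220 (864 higher) at a mean of at least 5 FPKM, where 38.9% of calls were higher against 52% in the main fit. They became 1639 (767 higher, 872 lower) in wild-type libraries alone, 7 (6 and 1) in percc1-/- libraries alone, 424 (231 and 193) for colon at P5 and 1309 (485 and 824) for rectum at P5. Upper-quartile rescaling moved the median difference to 0.15 and the share of calls that were higher to 68.1%. Leaving out 1 library gave 1622 to 3910 calls, 727 to 2166 higher and 895 to 1744 lower, the fewest without wild-type lower small intestine at P5. Region by stage (0 calls) gave 4 with a pseudocount of 0.1, 3 without a filter, 1 with a plain prior and 0 to 28 with 1 library left out. Region by genotype (1 call) gave 7, 5 and 2 under the same settings, 2 without rescaling, 0 with upper-quartile rescaling, 7 with unnamed records added and 0 to 33 with 1 library left out. Rectum against colon (138; 36 higher, 102 lower) gave 18 (3 and 15) without the 2 libraries with stomach genes, 47 to 122 (8 to 34 higher, 39 to 88 lower) with 1 library left out, and 22, 18 and 61 higher with a pseudocount of 0.1, a mean of at least 5 FPKM and no rescaling. Over the named genes and all alternatives, 3800 values kept their side of the threshold, 551 calls were lost, 53 were gained and no sign was reversed. The causes were not tested.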

Other observations

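Large bowel genes appeared in some libraries of other gut regions, outside the comparison. In the top part of the small intestine Car1 stood at 14.0 FPKM (not rescaled) in percc1-/- and was listed at 0 in wild type at P1, and stood at 11.7 FPKM in percc1-/- and 0.0980 FPKM in wild type at P5. Hoxb13 stood at 7.14 FPKM in percc1-/- and at 0 in wild-type top intestine at P5, and Hoxa11 at 0.651 FPKM and 0 in the same pair. In stomach at P5 Car1 stood at 8.22 FPKM in percc1-/- and 0.162 FPKM in wild type. Each of these values is from 1 library, and no test was made.

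In the lower small intestine of older mice Car1 stood at 1.14 FPKM in percc1-/- and 0.154 FPKM in wild type at P10, and at 7.09 FPKM in percc1-/- and 1.90 FPKM in wild type at P20. Fabp6 stood at 45.1 FPKM in percc1-/- and 11.6 FPKM in wild type at P10. In the whole gut at E14.5 Car1 stood at 1.13 FPKM in percc1-/- and 3.94 FPKM in wild type, and Hoxb13 at 0.562 FPKM in both.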
